A study of Homo sapiens with 6 samples.

Results

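The regions described here are the first 30 codons behind the annotated stop codon in the mRNAs of HEK293 cells, taken from 191 transcripts that carried ribosome footprints there, of 9570 transcripts measured. Members had at least 100 codons with footprints in the coding sequence (CDS), at least 30 codons of 3′UTR, and footprints on at least 5 of the first 30 codons behind the stop codon. The ratio of the mean occupancy of those 30 codons to the mean occupancy of the CDS, called the post-stop ratio here and given in percent, ranks them. A limit of the 200 highest ratios was set, but only 191 of the 7697 transcripts with enough codons met the requirement of 5 codons, so the ratio removed none and the members were in effect selected on the number of codons with footprints. The ratio and the counts in the first 30 codons are therefore descriptions and were not tested.

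HEK293 is a line derived from human embryonic kidney cells. All cells received a control siRNA, and there is a single condition, with 3 libraries of ribosome-protected fragments (RPF) and 3 libraries of ribosomal RNA-depleted total RNA from the same lysates. The cells were treated with cycloheximide, which holds ribosomes on the mRNA, at 100 µg/ml for 3 min before lysis. Lysis was also in its presence. RPFs were counted per codon in the reading frame of the CDS only, normalized for library size and divided by the abundance of the mRNA, and the deposited occupancy sums the 3 libraries. Of the 7 genes taken as marks of the line, 6 were in the occupancy table (KRT8, KRT18, VIM, NEFL, NEFM and INA), and no occupancy or translational efficiency value was found here for PAX2.

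At a stop codon the release factors eRF1 and eRF3 free the finished protein, and the ribosome is then split and recycled. When a transfer RNA decodes the stop codon instead, translation goes on in the same frame into the 3′UTR until the next stop codon in that frame and adds an extension to the protein, which is called stop codon readthrough. UGA is known as the leakiest of the 3 stop codons, above all when CUA follows it. Footprints behind a stop codon are also known from other sources: another mRNA isoform that is coding there, a related gene with the same sequence, ribosomes that were not recycled, or translation that starts anew.

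The sequences around the annotated stop codon are shown for 9 members whose footprints are described below. Each line holds 9 bases of the CDS, the stop codon in capitals and 18 bases of the 3′UTR, written 5′ to 3′ from GENCODE transcripts on GRCh37 (hg19).
FBL: gtgaagaacTGAagttcagcgctgtcagga
MRPL23: ttcgggctgTGAcggggtggccagcaggga
PRDX1: aagcagaagTGAgcgctgggctgttttagt
EEF1A1: aaggctaaaTGAatattatccctaatacct
EEF1E1: aattcccacTAGaagctgtccatgccatac
DNAJC5: gggttcaacTAAatccaggaggagctgtgg
MDH1: tcctctgccTGActagacaatgatgttact
CGGBP1: caagattgtTGActaggaggttaccaccat
AMD1: cagcagagtTGAttaagaaaaatgaagaaa
These stretches lie at chr19:40325160-40325189 (FBL, minus strand), chr11:1977639-1977668 (MRPL23, plus strand), chr1:45976983-45977012 (PRDX1, minus strand), chr6:74227515-74227544 (EEF1A1, minus strand), chr6:8080105-8080134 (EEF1E1, minus strand), chr20:62562910-62562939 (DNAJC5, plus strand), chr2:63834110-63834139 (MDH1, plus strand), chr3:88104605-88104634 (CGGBP1, minus strand) and chr6:111214808-111214837 (AMD1, plus strand). Each lies within a single exon that holds the end of the CDS and the start of the 3′UTR. MDH1 and CGGBP1 were the only matched members with the letters TGACTA at the stop codon.

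The number of reads behind each value was recovered from the occupancy table, in which every value of a transcript is a sum of whole reads times the worth of a read in each of the 3 libraries. This gave the reads of each library behind the stop codon for all 191 members. In 47 members a part of the CDS reads, on the codons with the highest values, could only be estimated, and was split over the libraries as the other CDS reads of the transcript. The table does not name the libraries, so they are not given the replicate numbers of the labels and are called the first, the second and the third library by their number of CDS reads, of which they held a median of 43.0%, 34.2% and 22.9% per member. The members had 6152 reads in the first 30 codons behind the stop codon in all, with a median of 12 and a range of 5 to 1630 per member. Reads came from all 3 libraries in 170 members and from 2 libraries in the other 21. Values rest on few reads in many members: 77 had under 10 reads in these codons, and 56 had 20 or more.

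Most transcripts had no footprint behind the stop codon. In the 7506 transcripts outside the members 75.6% had no read in the first 30 codons, and together they had 3919 reads there, so that the members held 61.1% of all such reads. The CDS of a member was read more deeply, with a median of 16451 reads against 2308.5. At the limit of the rule, 55 members had footprints on exactly 5 codons, with a median ratio of 0.912% and a median of 7 reads, and 82 transcripts had footprints on 4 codons and were left out, with a median ratio of 0.555% and a median of 5 reads. The ratios inside the limit at 5 codons ran from 0.0205% to 209%, and those just outside it from 0.0172% to 20.9%.

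The post-stop ratio spanned 4 orders of magnitude. It was 209% in ZNF117 and 0.0205% in UBB, with a median of 0.865%. Ratios of 10% or more were found in 26 members, and 103 members had a ratio under 1%. Lower ratios were found in mRNAs with more CDS reads, such as ACTB, HSPA8 and UBB, in which the few reads that the rule asks for are a small part of the total. The median ratio over members was 0.689% in the first library, 0.702% in the second and 0.787% in the third. The coefficient of variation between the 3 libraries had a median of 41.9% over all members and of 14.9% over the 21 members with 50 or more reads.

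**Figure D1:**
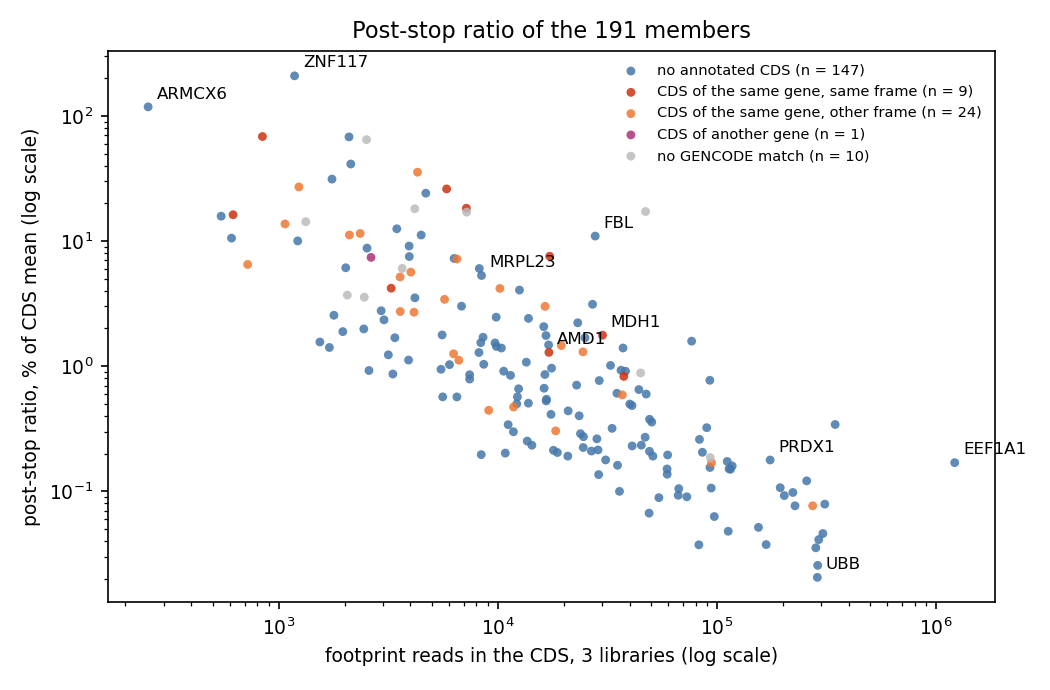
Post-stop ratio (percent of the mean CDS occupancy, log scale) against the number of CDS reads in the 3 RPF libraries (log scale). Each point is a member, coloured by what GENCODE annotates over the first 90 nt behind the stop codon. ZNF117 (209%) and ARMCX6 (118%) are highest, and the most deeply read mRNAs, such as EEF1A1 and UBB, lie low. The rule asks for reads on 5 codons, which sets the lower edge of the points.

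The 10 highest ratios were those of ZNF117, ARMCX6, PSTK, ZNF28, CASP2, ZNF302, CWC27, ZNF814, AASDH and CD46. In ZNF117, a zinc finger gene, the first 30 codons held 55, 42 and 45 reads in the first, the second and the third library, on 5 codons of which a single one made up 86.2% of the occupancy. In ARMCX6 there were 13, 13 and 5 reads beside only 254 reads in the whole CDS. In ZNF28 there were 21, 28 and 12 reads, and in ZNF302 26, 21 and 17 reads. All 3 libraries thus held reads in these members, with ratios of 204% ± 53.4 in ZNF117, 119% ± 35.2 in ARMCX6, 68.9% ± 18.5 in ZNF28 and 40.9% ± 4.66 in ZNF302 (mean over the libraries ± SD, n = 3). In AASDH, by contrast, the third library held a single read beside 7 and 5 in the others. ZNF814 had 9, 5 and 5 reads, of which a single codon held 67.0% of the occupancy.

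Sequence shared with other genes was frequent at the top of the ranking. For 38 of the 181 members that matched a GENCODE transcript (20.99%), at least one 30-base stretch that starts in the first 90 nt behind the stop codon also occurred in a transcript of another gene, against 7.67% of the other transcripts. The whole stretch of ARMCX6 was shared with a non-coding transcript, and ZNF302 shared 88.9% of its stretches with ZNF181. Members with a ZNF symbol were about as frequent (4.19%) as among the other transcripts (3.76%), and all 8 were among the 50 highest ratios. Their CDSs were thinly read, from 1183 reads in ZNF117 to 4699 in ZNF761, against a median of 16451 over the members. The reads that the rule asks for are a larger part of a thinly read CDS, so depth in part set this place. All 7 ZNF members outside annotated CDSs, from ZNF117 to ZNF100, shared stretches, as against 19.1% of the other transcripts with a ZNF symbol. An RPF from a shared stretch can be placed on either gene, and the part of this in the ratios was not tested.

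Another isoform of the same gene was annotated as coding over the region in 33 members. In 9 of them the CDS of another transcript covered at least 30 of the first 90 nt in the same frame, in 24 in another frame, and in 1 (TGIF2-C20orf24) the CDS of another gene did so. These 34 members are 18.8% of those matched, against a background of 3.68% among the other transcripts. They made up 19 of the 42 matched members among the 50 highest ratios. The median ratio was 7.56% for the 9 in the same frame, 2.87% for the 24 in another frame and 0.569% for the 147 members with no annotated CDS there.

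In the same frame, many reads were found in ZRANB2, CD46, PSTK and MDH1. ZRANB2, a zinc finger protein of the splicing machinery, had 46, 46 and 29 reads in the first 30 codons of the 3 libraries and a ratio of 7.61% ± 0.920 (SD, n = 3). CD46, a complement regulator of the cell surface, had 42, 40 and 33 reads and a ratio of 26.5% ± 6.71. PSTK, the kinase that acts on seryl-tRNA in selenocysteine synthesis, had 27, 13 and 11 reads and a ratio of 68.2% ± 10.1. The ranges of the 3 libraries of ZRANB2 lay below those of CD46 and PSTK without overlap. In another frame, CWC27, LRR1, PSIP1, HIRIP3 and NAP1L4 had the most reads, between 22 in NAP1L4 and 117 in CWC27. CWC27, a cyclophilin of the spliceosome, had 46, 45 and 26 reads and a ratio of 35.8% ± 5.16, although its next stop codon in frame followed after a single codon.

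Another 10 members could not be matched to a GENCODE transcript of the same CDS length, and for 7 of them GENCODE holds a longer CDS of the gene. RPL10, a protein of the large ribosomal subunit, had the most reads of all members behind the stop codon, with 639, 549 and 442 in the 3 libraries on 25 of the 30 codons. Its listed CDS had 146 codons, and the longest in GENCODE has 215. CASP2, VPS72 and GPATCH4 had 150, 110 and 97 reads, and RPL36A-HNRNPH2 had 31. The 8 unmatched members among the 50 highest ratios and the 19 with an annotated CDS left 23 with neither.

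Removing members with an annotated CDS, shared stretches or no match left 113 members, which had a median ratio of 0.650%. They were 14 of the 50 members with the highest ratios. NIPAL1 was highest among them at 15.8%, but had 0, 2 and 3 reads in the 3 libraries. FBL was the next highest at 10.9%.

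FBL, the methyltransferase fibrillarin of ribosomal RNA processing, had 127, 85 and 69 reads in the first 30 codons, the most of any matched member with no annotated CDS there. The ratio was 11.4% in the first library, 9.22% in the second and 12.2% in the third, and the CDS held 27857 reads. The 3 libraries thus lay close together, at 10.97% ± 1.56 (SD, n = 3). MRPL23, a protein of the mitochondrial ribosome, had 37, 46 and 9 reads and ratios of 5.27%, 8.30% and 2.32%, so that the third library stood below the others. DNAJC5, a co-chaperone of synaptic vesicles, had 18, 14 and 12 reads and a ratio of 7.50% ± 0.814. RNF122, a RING finger protein, had 15, 13 and 11 reads and a ratio of 3.02% ± 0.305. EEF1E1, a scaffold protein of the multi-tRNA synthetase complex, had 20, 19 and 5 reads and a ratio of 2.44% ± 0.993. In FKBP5, an immunophilin that binds HSP90, 22 of 32 reads came from the first library and 5 from each of the others. A single codon held 73.4% of the occupancy in DNAJC5, 59.5% in MRPL23 and 56.5% in RNF122. The highest codon held 43.7% in FKBP5, 20.8% in EEF1E1 and 15.7% in FBL. Over all members, 25 had a single codon with more than 50%. DNAJC5, RNF122, MRPL23, FKBP5, AMD1, NIPAL1 and the other members that the naming rule did not choose were named after their values were seen.

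Members with high CDS counts had lower ratios and still many reads. EEF1A1, the elongation factor that brings aminoacyl-tRNA to the ribosome, had 66, 31 and 36 reads and a ratio of 0.172% ± 0.0536 (SD, n = 3). Of its CDS reads 81.4% were estimated, as were 49.9% in PRDX1, 55.1% in NPM1 and 31.6% in RPL10, so the SD of these ratios holds no error of that estimate. PRDX1, a peroxiredoxin, had 25, 19 and 6 reads and a ratio of 0.178% ± 0.0694. NPM1, a nucleolar chaperone, had 54, 39 and 28 reads, of which a single codon held 83.9% of the occupancy, and 57.8% of its stretches were shared with other genes. EIF1, a factor of start codon selection, had 61, 43 and 33 reads and a single codon with 76.1% of the occupancy. EEF1A1 also shared 43.3% of its stretches with other transcripts, while PRDX1 and EIF1 shared none.

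**Figure D2:**
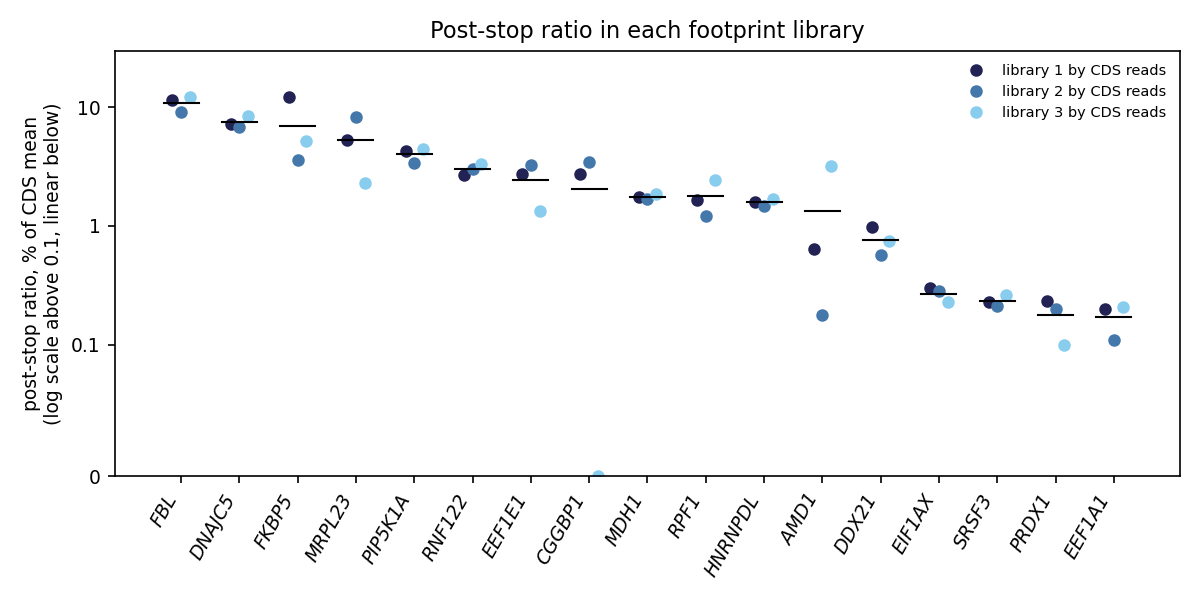
Post-stop ratio (percent of the mean CDS occupancy, log scale above 0.1 and linear below) of 17 members in each of the 3 RPF libraries. Points are libraries, ordered by CDS reads, and lines are their means. The 3 points of FBL, RNF122, MDH1 and HNRNPDL lie close together, while AMD1 runs from 0.178% to 3.23% and CGGBP1 had no read in the third library.

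The next stop codon in the frame of the CDS ends a readthrough extension, and its place was not used by the rule. Extensions had a median of 20 codons in the members and 16.5 codons in the other transcripts. The fall of occupancy at this stop codon could be evaluated in 126 members, those with at least 9 sense codons before it and at least 10 codons after it. In these there were 3679 reads on the 4307 codons before the next stop codon and 559 reads on the 3725 codons after it, at most 30 per member, which is a ratio of 5.69 per codon. In the other 4908 transcripts the same ratio was 1.98, over 3076 and 1324 reads. The codons before the next stop codon include those of the first 30 on which the rule asked for reads. A part of the difference between 5.69 and 1.98 was thus set by the rule. In 67 of the 126 members (53.2%) the mean occupancy after the next stop codon was 10% or less of that before it, beside a background of 60.7% among the 1630 other transcripts with any read there. The share was thus not above the background, in which single reads decide, and is no result about the members by itself. Of 44 members with 20 or more reads before the next stop codon, 30 fell to 10% or less and 24 had no read after it, and of the 11 other transcripts with as many reads 7 fell to 10% or less and 4 had no read after it. The fall to 10% or less was seen in each of the 3 libraries in 55 of 102 members with reads in all of them (53.9%) and in 100 of 150 such other transcripts (66.7%).

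FBL had 281 reads in its extension of 21 codons and none in the 13 codons listed after it, which allows up to 1.72% of the level before (an upper limit of 3 reads). PRDX1 had 45, 46 and 20 reads over an extension of 84 codons and 0 reads in the 27 codons after it. EEF1A1 had 215, 131 and 113 reads over 65 codons and 19 reads in the 30 codons after them. MRPL23 had 92 reads, all on the last 6 codons of its 30-codon extension, and none after it. GENCODE holds another MRPL23 transcript with a CDS of the same length and a shorter 3′UTR, in which the next stop codon in frame is codon 21 instead of 31. For HNRNPDL, the next stop codon was codon 21 in both protein-coding transcripts with this CDS length and codon 56 in another one marked for nonsense-mediated decay. DNAJC5, EEF1E1, RNF122, FKBP5, DDX21 and PIP5K1A had between 27 and 51 reads before and none in the 30 codons after the next stop codon. HNRNPDL had 86 reads before and 2 after, SRSF3 29 and 1, and EIF1AX 27 and 1. Among members with an annotated CDS in the same frame, CD46 had 199 reads before the next stop codon, ZRANB2 135 and PSTK 78, and none of these had a read after it.

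Other members kept their footprints beyond the next stop codon. ZNF117 had 228 reads before and 75 in the 30 codons after it, an occupancy after of 84.9% of that before. ZNF282 had 21 reads before and 47 after, POLR2D 20 and 28, and NEFM 28 and 15. ACTB had 30 reads before and 3 after. NME1 had 25 reads on its 90-codon extension and no listed codon after it. In 51 members the next stop codon came before codon 10. In EIF1 it followed after 5 codons, with 14 reads before and 155 in the 30 codons after it, and in CWC27 after 1 codon, with 117 reads after it. Over the 126 members, the mean after the next stop codon was above that before it in 20. The same was found in 484 of the 1630 other transcripts with any read before or after it.

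**Figure D3:**
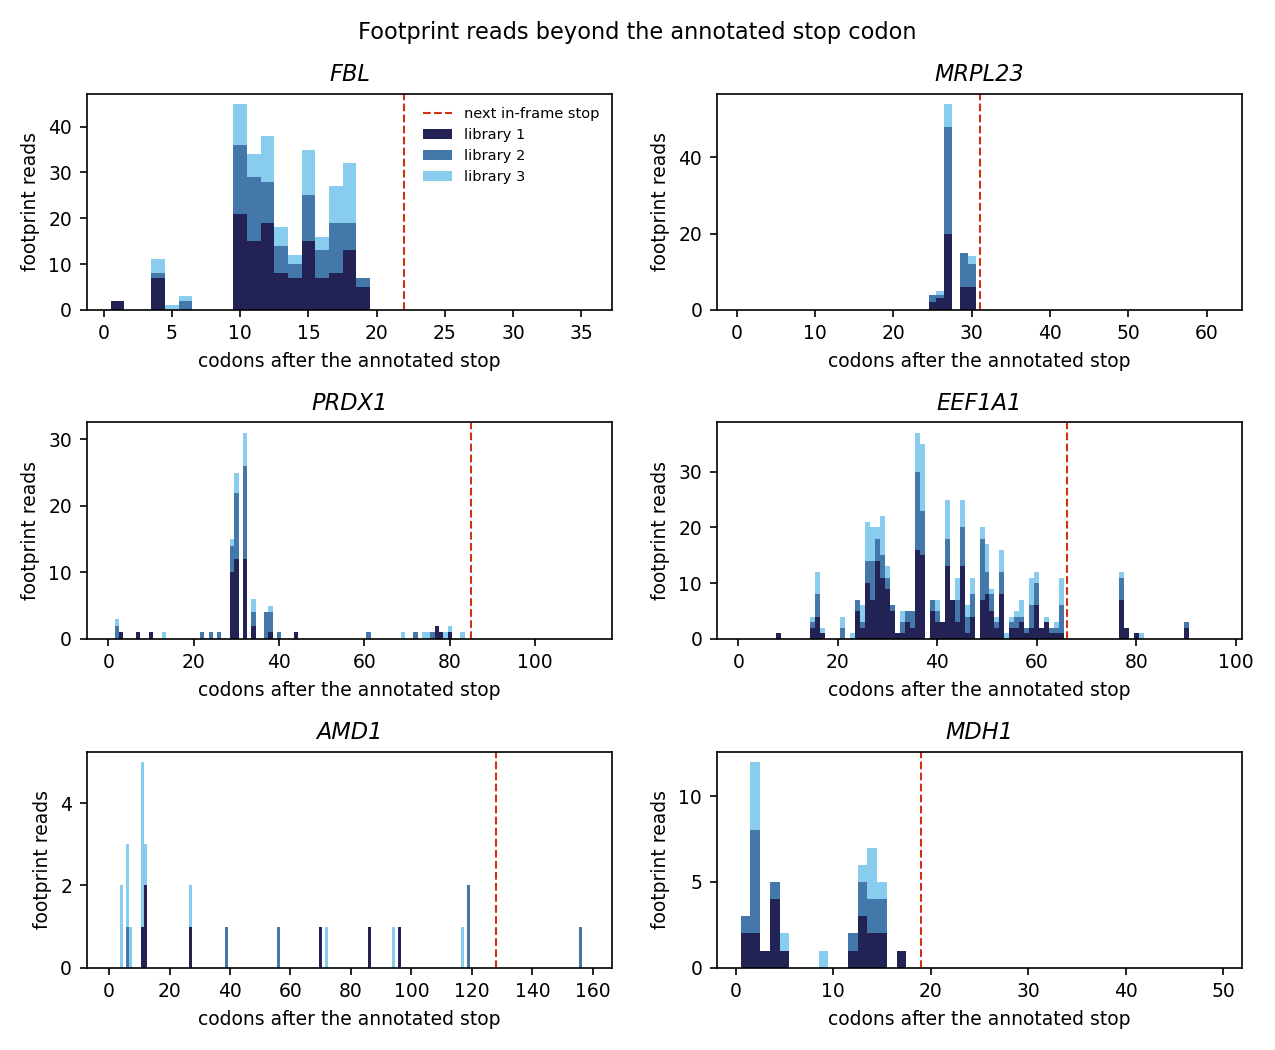
RPF reads per codon behind the annotated stop codon (codon 1 is the first one after it) in 6 members, stacked by library. The dashed line is the next stop codon in frame. Reads end before this line in FBL, MRPL23, PRDX1 and MDH1, and EEF1A1 (19 reads) and AMD1 (1 read) have few behind it.

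Because the rule used the first 30 codons, the fall was also measured without them, an alternative added after the data were seen. In 35 members whose next stop codon came at codon 41 or later, codons 31 up to that stop codon had 826 reads on 1272 codons, and those after it had 124 reads on 1035 codons, a ratio of 5.42 per codon. Without EEF1A1, which held the most of these reads, the ratio was 3.87, over 500 and 105 reads. In the other transcripts the ratio was 2.83, over 1052 and 280 reads. Of 29 members with a read in either stretch, 27 had more per codon before the next stop codon and 2 had more after it. Of 391 such other transcripts, 308 had more before it and 82 had more after it. Within the first 30 codons, in members with the next stop codon at codon 10 to 21, the ratio was 2.51, against 2.03 in the other transcripts.

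The same measure was taken at the first stop codon in the other reading frames, also after the data were seen. The 10 codons before the stop codon were compared with the 10 after it, with only reads in the CDS frame counted at each. At the stop codon in frame the ratio was 6.99, 6.11 and 5.11 in the 3 libraries of the 126 members. At the first stop codon of the +1 frame it was 2.20, 2.10 and 2.17 in 125 members, and at that of the +2 frame 0.972, 0.869 and 0.772 in 115 members. Codons before an early stop codon lie among the first 30 behind the CDS, which the rule used. With stop codons at codon 41 or later, so that the codons compared lie beyond the first 30, the ratios were 6.08, 11.8 and 4 in frame (35 members), 4.44, 4.09 and 5.86 in the +1 frame (38 members) and 0.922, 0.844 and 1 in the +2 frame (20 members), and the first pair of frames overlapped. In the other transcripts, with stop codons at all positions, the ratios were 2.58 ± 0.319 in frame, 0.931 ± 0.0443 in the +1 frame and 1.29 ± 0.0986 in the +2 frame (SD, n = 3). With stop codons at codon 41 or later they were 4.89 ± 0.526, 2.21 ± 0.260 and 1.55 ± 0.319. The value in frame thus lay within the range of the libraries of the members. The members with the most reads weigh most in these sums: without the 5 with the most reads before the stop codon, the ratios at all positions were 3.56, 1.63 and 0.725. At codon 41 or later the ratio in frame was then 2.58 in the members and 4.89 in the other transcripts, also without their 5. In the +1 frame these values were 2.17 and 1.53. Members with no annotated CDS and no shared stretch had 5.87 in frame and 1.94 in the +1 frame at all positions. At codon 41 or later their order was reversed, with 3.28 in frame (59 and 18 reads) and 10.75 in the +1 frame (43 and 4 reads). By number of members, 81 of 126 had more reads before the stop codon in frame and 82 of 125 before that of the +1 frame, so the counts of members did not separate these frames, while 47 of 115 did at the +2 frame. Of these members 108, 113 and 103 had a read in either stretch. Among other transcripts with such a read, 606 of 857 had more before the stop codon in frame, 488 of 836 in the +1 frame and 437 of 807 in the +2 frame.

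**Figure D4:**
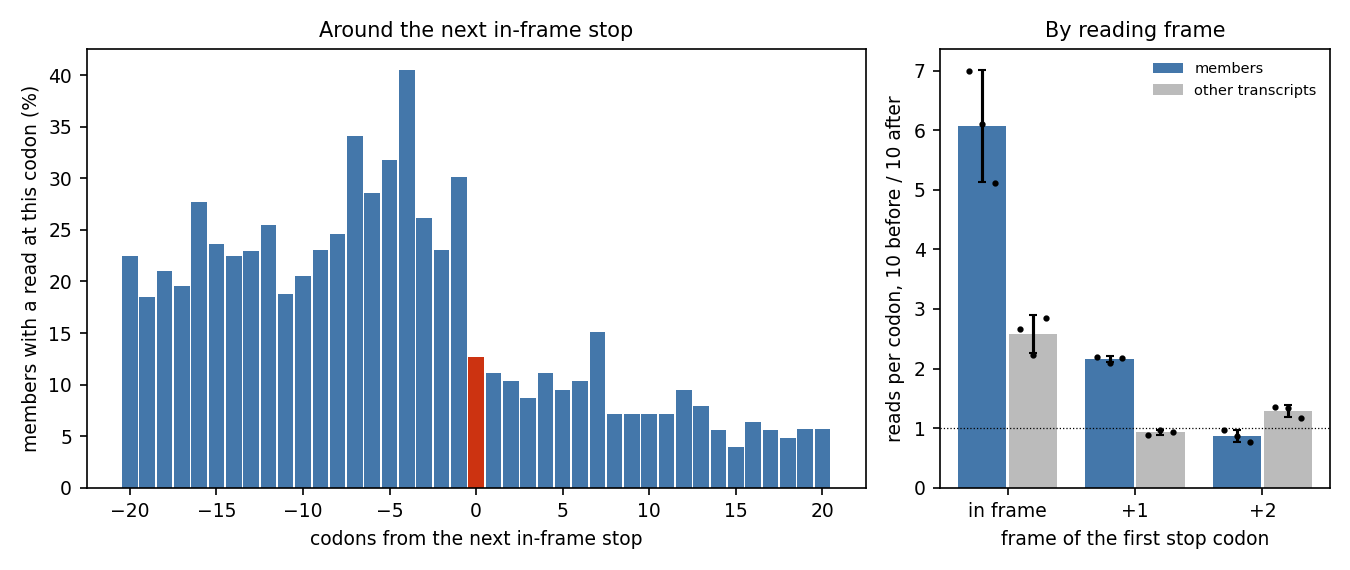
Left, share of the evaluated members (percent) with at least 1 read at each codon around the next stop codon in frame (red, position 0). Right, reads per codon in the 10 codons before over the 10 after the first stop codon of each frame, for members and other transcripts, as mean over the 3 libraries with SD bars and a point for each library. At the single codons, 20.5% to 40.5% of the members had a read in the 10 codons before the next stop codon and 7.14% to 15.1% in the 10 codons after it.

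An ATG codon in frame between the annotated and the next stop codon was found in 66 of the 126 evaluated members (52.4%), against 35.8% of the other transcripts evaluated. The median length of the extension was 27 codons in these members and 26 in these other transcripts. In several members the reads began at or near this ATG. In FBL it was codon 10, with 17 reads before it and 264 from it on. In EEF1E1 it was codon 4, with no read before it and all 44 from it on. DNAJC5 had 4 reads before its ATG at codon 21 and 47 from it on, RNF122 3 before codon 15 and 36 from it on, and SAR1A 1 before codon 22 and 21 from it on. Others did not follow this: FKBP5 had all 32 reads before its ATG at codon 29, RPL23A 33 of 36 before codon 38 and PIP5K1A all 27 before codon 19. MRPL23 and MDH1 had no such ATG. Over 26 members with 20 or more reads and an ATG at codon 4 or later, 17 had more reads per codon from the ATG on, with 138 reads per 100 codons before it and 151 from it on. In the 15 of these with no annotated CDS and no shared stretch the values were 69.3 and 124, and 9 had more from the ATG on. Ribosomes that start anew at an ATG and ribosomes that pass the stop codon cannot be told apart in these counts.

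Among the 20 genes listed here as known for readthrough from other work, MDH1 was the only member. The list was a choice made here, and AMD1 was not on it. MDH1, the cytosolic malate dehydrogenase, ranked 63rd with 19, 15 and 11 reads and ratios of 1.77%, 1.69% and 1.85% in the 3 libraries. The ratio varied little between them, at 1.77% ± 0.0808 (SD, n = 3). Its TGA is followed by CTA, all 45 reads lay in the extension of 18 codons, and the 30 codons after the next stop codon had none, which allows up to 4% of the level before. The extended form of MDH1 is an annotated CDS in GENCODE. Of the 20 genes on the list, 8 were in the occupancy table, and 6 of these had enough codons. VDR and EDEM3 had a single read each in the first 30 codons, beside 483 and 3022 CDS reads. On that single read the ratio was 2.89% in VDR, above that of MDH1, and 0.936% in EDEM3. The stop codons of VDR and DUS4L also stand in TGACTA. ACP2, DHX38 and DUS4L had none, which allows ratios of up to 2.19%, 2.99% and 4.07% at their 1939, 4107 and 781 CDS reads. Their ratios were thus not shown to be below that of MDH1. VEGFA failed the limit on CDS codons, and LEPR had 10 codons of 3′UTR.

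CGGBP1, a protein that binds CGG repeats, was the other member with TGACTA. It had 5 reads in each of the first and the second library and none in the third, a ratio of 2.06% ± 1.82. Its extension of 30 codons held 10 reads, and 1 read followed after the next stop codon. TGACTA was found at the stop codon of 20 other transcripts (0.278%), against 1.10% of the members. AMD1, the S-adenosylmethionine decarboxylase of polyamine synthesis, has an annotated longer CDS of 463 codons against 335 in the table. Its extension of 127 codons held 7, 5 and 14 reads, and the first 30 codons had 4, 1 and 11, with ratios of 0.633%, 0.178% and 3.23%. The third library thus decided its place among the members, and 1 read was found in the 30 codons after the next stop codon.

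TGA was not more frequent in the members. The stop codon was TAA in 84 of 181 matched members (46.4%), TGA in 74 (40.9%) and TAG in 23 (12.7%), against 30.6%, 48.3% and 21.1% of the other transcripts. The 95% exact binomial interval of the share of TGA in the members was 33.6% to 48.4%, and it holds counting error only. TAA was also more frequent in deeply read transcripts outside the members: of 575 with at least as many CDS reads as the median member, 41.7% ended with TAA, 38.1% with TGA and 20.2% with TAG. The 93 members above that depth ended with TAA in 55.9%, with TGA in 30.1% and with TAG in 14.0%. The base after the stop codon was A in 40.3% of the members and 29.9% of the other transcripts, C in 14.9% and 21.9%, G in 27.1% and 29.4%, and T in 17.7% and 18.8%. The letters TGAC stood at the stop codon of 13 members (7.18%) and 9.86% of the other transcripts.

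Occupancy fell further down the 3′UTR. In codons 31 to 60, which the rule did not use, the median of 178 members with so many codons was 0.0504% of the CDS mean, and 33.1% of them had no read, against 83.7% of the other transcripts, whose median was 0. In codons 61 to 90 the median of 167 members was 0, 55.7% had no read, and 89.0% of the other transcripts had none. The share with no read depends on depth, and the members had a median of 16451 CDS reads against 2308.5. These shares were not compared at equal depth. Codons 31 to 60 were higher than the first 30 in 26 members. On the other side of the CDS the members were lower: their 5′UTR had a median of 1.47% of the CDS mean, against 2.84% in the other transcripts. Single members lay far above that median, such as ARMCX6 (250%) and SEPHS2 (124%).

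Of the genes listed here for translation termination and related steps, 16 had enough codons. Among these TRMT112, the partner of the methyltransferase that modifies release factor eRF1, was the only member. It had 3, 8 and 3 reads and a ratio of 0.498% ± 0.283 (SD, n = 3), and 13 reads lay before its next stop codon and 13 after it. ETF1, which encodes eRF1, and GSPT1, which encodes eRF3, had a single read each beside 27411 and 44560 CDS reads. Of the selenoproteins, in which UGA can code for selenocysteine, 7 had enough codons and SEPHS2, a selenophosphate synthetase, was the only member. It had 4, 2 and 2 reads beside 1223 CDS reads, a ratio of 9.98% ± 2.80, with 9 reads before the next stop codon, which ended an extension of 34 codons, and none after it.

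Translational efficiency (TE), the ratio of RPFs to total RNA per gene and replicate, was tested against the median of all genes with limma on log2(TE + 0.01). TE has the RPF reads of the CDS above the line and the post-stop ratio has them below it, so TE and this ratio are not independent. The rule also favoured deeply read mRNAs, with a median of 16451 CDS reads in the members against 2308.5. TE was not compared at equal depth, so the counts below are descriptions, and the part of depth in them was not tested. Of the 176 members with a TE value, 168 differed from the median at an FDR of 0.05, beside a background of 89.3% of all 8121 genes called. They were higher in 137 members (77.8%) and lower in 31 (17.6%), against 44.7% and 44.6% of all genes, and 8 members did not pass. The median TE of the members was 0.961, against 0.385 over all genes. The 43 members in the table among the 50 highest ratios had a median TE of 0.363, with 20 higher and 19 lower, and the other 133 had a median of 1.24, with 117 higher and 12 lower.

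HNRNPA1L2, a retrogene of the splicing regulator HNRNPA1, had the highest TE of the members at 58.0, 69.3 and 76.2 in the 3 replicates, and its stretches were all shared with other transcripts. NUP160, a protein of the nuclear pore, had 26.4, 25.4 and 27.9, and ANP32B, a histone chaperone, had 24.2, 23.1 and 29.7. These 3 lay 6.02 to 7.42 above the median of all genes on the log2 scale. The lowest were CTNNB1 (β-catenin) at 0.0530, 0.0568 and 0.0574, DICER1, the RNase that cuts microRNA precursors, at 0.101, 0.0900 and 0.0928, and SIVA1, a proapoptotic protein, at 0.107, 0.0967 and 0.0944. MDH1 had a TE of 0.724 ± 0.0109 (SD, n = 3) and was 0.90 ± 0.05 (SE) above the median on the log2 scale (limma, adjusted p = 2.78e-05), and AMD1 had a TE of 0.453 ± 0.0307 and was 0.23 ± 0.06 above it (limma, adjusted p = 0.0134). MRPL23 had a TE of 2.60 ± 0.329 and EEF1A1 of 6.41 ± 0.361, and FBL has no TE value here.

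**Figure D5:**
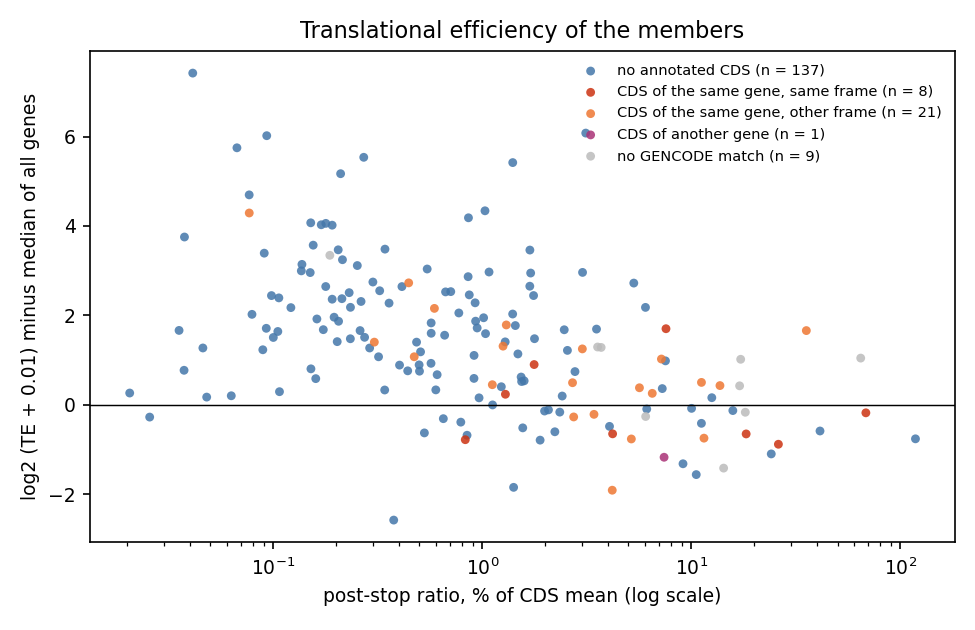
Difference of log2(TE + 0.01) from the median of all genes against the post-stop ratio (percent of the mean CDS occupancy, log scale) of the 176 members in the TE table, coloured by what GENCODE annotates over the first 90 nt behind the stop codon. Members with a ratio under 1% lie mostly above the line at 0, and those with higher ratios lie on both sides of it. Both axes hold the RPF reads of the CDS, so they are not independent.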

How the data were processed

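HEK293 cells treated with control siRNA gave 3 RPF and 3 total RNA libraries. The authors trimmed adapters, removed duplicate reads, mapped RPFs to hg19 transcripts with bowtie and kept lengths of 28 to 30 nt, and the submitters' processing notes list cutadapt 1.16, Bowtie 1.1.2, TopHat2 2.1.1 and HTSeq 0.9.1. The study's methods state the mapped reads of each replicate, and depth is given here as the reads recovered per transcript. The deposited occupancy table holds in-frame RPF counts per codon, normalized by the authors for library size and divided by TPM, as lists with the libraries summed. The deposited TE table holds a linear ratio per gene and replicate.

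For each transcript the worth of a read in each library was searched among its low values, and each value was split into whole reads (relative tolerance 5e-14, values up to 3000 times the smallest step). This solved 7689 of 7697 transcripts. Of 2541539 CDS values above 0, 1474 exceeded that limit and their reads were estimated. On 300 simulated transcripts 100% of the values were exact. In 31 transcripts a CDS list broken over lines was rejoined. Intervals and limits from 0 reads (3 counts) cover counting error only.

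Transcripts were matched to GENCODE 44 on GRCh37, the same build, by gene and CDS length. An annotated CDS had to cover 30 nt or more. Comparison is with the 7506 transcripts outside the members, since no eligible transcript was left outside the limit of 200. The TE test used limma 3.58.1 (R 4.3.3) and Benjamini-Hochberg adjustment. Same-numbered libraries come from the same lysate, and TE is taken within each pair. Replicates correlated at 0.987 to 0.990. Whether they came from separate cultures is not stated in the labels, so p-values measure the spread between these samples.

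Genes were named by a rule (the 10 highest ratios, the 5 with the most reads in each annotation class, the 10 with the most codons read before the next stop codon, members with TGACTA, the readthrough list and the 3 highest and 3 lowest TE). An item that the rule chose is not reported here. The members and lists were chosen with earlier results of these data known.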

Additional observations from a re-analysis of the deposited data

How the results depend on the processing

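Asking for 10 codons with reads in place of 5 left 33 of 191 members. Of the 50 highest ratios, 35 to 50 were among the 50 highest when the window, the denominator or the highest codon was changed, and the first 10 codons gave 35. An overlap of all 90 nt with an annotated CDS was found in 17 members instead of 34. The median of codons 31 to 60 was 0.0337% of the CDS mean in the members with no annotated CDS, against 0.0504%. The members whose occupancy fell at the next stop codon were 61 to 87 under the planned changes and 47 among those with neither an annotated CDS nor shared stretches, an alternative added after the data were seen. The replicate block gave 169 members called in TE against 168, and leaving out each replicate gave 161 to 163. The share of TGA stayed between 38.1% and 41.2%. Depth limits most members, since 77 had under 10 reads behind the stop codon.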
